A study of Mus musculus with 2 samples.

Results

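The cells described here were picked out of sorted CD45-positive tumour cells as basophils, by their own transcripts. A cell was taken when its barcode held at least 2 unique molecular identifiers (UMIs, counted RNA molecules) of Mcpt8 and Cd200r3 together and none of the T cell gene Cd3e, the B cell gene Cd79a or the keratins Krt8 and Krt18. Barcodes needed at least 200 genes and at most 10% mitochondrial UMIs, which 3364 barcodes passed in the vehicle library and 4370 in the Momordicine-I library. The gate kept 56 vehicle cells and 43 Momordicine-I cells, 99 of 7734 in all. The cells were chosen by their Mcpt8 and Cd200r3 UMIs, so the levels of these 2 genes are given as a description.

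The tumours grew from MOC2, a mouse oral carcinoma line, injected with Matrigel under the flank skin of female C57BL/6 mice that were 6 to 7 weeks old. Vehicle mice received 5% DMSO in a Captisol solution (30% weight by volume, making up 95%), and treated mice received 30 mg/kg of Momordicine-I in that mixture, by intraperitoneal injection daily, with 10 mice in each group. Momordicine-I is a compound of bitter melon. Tumours of 3 mice per group were pooled, sorted for CD45 with propidium iodide staining and made into 1 library per group by 10x Genomics 3' v3.1 chemistry. With 1 library per group there is no test of treatment: the 95% intervals below cover counting error only. Those of gene ratios treat each UMI as independent, so the spread between cells is left out as well. Differences between mice, tumours or library preparations cannot be told apart from the treatment.

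Basophils are rare granulocytes that mature under the transcription factor GATA2, respond to interleukin 3 and carry the high-affinity receptor for IgE on their surface. When activated, they release stored histamine and newly made interleukin 4, interleukin 13 and chemokines. Mouse basophils store mast cell protease 8, the product of Mcpt8, and carry CD200R3, an activating receptor of the CD200 receptor family. Mast cells share the IgE receptor with them but store chymases and tryptases and carry the receptor KIT.

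Mcpt8 (ENSMUSG00000022157) lies at chr14:56082166-56085273 and Cd200r3 (ENSMUSG00000036172) at chr16:44943678-44981380 in GRCm38, and both are annotated as protein coding. Of the 20 genes most enriched in all gated cells, mast marker cells included, 6 have the letters AGATAA, which GATA factors recognise, within 150 bases upstream of their RefSeq start. Their upstream sequences are shown because Gata2 is itself among the genes that set the gated cells apart. Cpa3, one of the 6, owes most of its gated UMIs to mast marker cells. Each is written 5′ to 3′ on the gene's own strand (RefSeq, GRCm38.p6), and capitals mark AGATAA or its reverse complement.
Ms4a2 chr19:11623720-11623869, minus strand: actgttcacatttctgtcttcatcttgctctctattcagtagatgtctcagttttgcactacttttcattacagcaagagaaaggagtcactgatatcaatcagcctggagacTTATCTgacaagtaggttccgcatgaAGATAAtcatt
Fcer1a chr1:173227230-173227379, minus strand: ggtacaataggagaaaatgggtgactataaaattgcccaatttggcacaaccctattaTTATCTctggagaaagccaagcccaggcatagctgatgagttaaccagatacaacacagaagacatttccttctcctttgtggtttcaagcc
Cpa3 chr3:20242182-20242331, minus strand: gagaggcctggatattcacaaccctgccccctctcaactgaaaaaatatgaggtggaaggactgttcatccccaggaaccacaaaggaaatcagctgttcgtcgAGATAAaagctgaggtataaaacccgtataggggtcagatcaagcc
Cd200r3 chr16:44943528-44943677, plus strand: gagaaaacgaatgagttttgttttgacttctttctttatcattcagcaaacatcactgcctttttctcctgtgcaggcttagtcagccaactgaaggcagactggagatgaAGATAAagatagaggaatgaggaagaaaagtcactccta
Grm6 chr11:50850535-50850684, plus strand: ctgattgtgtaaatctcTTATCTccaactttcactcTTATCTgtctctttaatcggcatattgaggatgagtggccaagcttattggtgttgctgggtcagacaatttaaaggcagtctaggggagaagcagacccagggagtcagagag
Prss34 chr17:25298244-25298393, plus strand: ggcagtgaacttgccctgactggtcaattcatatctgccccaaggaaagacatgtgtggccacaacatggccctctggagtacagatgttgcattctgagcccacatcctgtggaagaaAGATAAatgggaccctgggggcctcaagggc
Searching 250 bases upstream on both strands, AGATAA occurred in 7 of the 18 matched genes among the 20 most enriched in gated cells (38.9%), against 3090 of 27025 genes in the RefSeq table (11.4%). Slc18a2, the remaining match, holds it farther upstream. In the list of 20 basophil identity genes, AGATAA occurred in 5 of 19 matched genes (26.3%). No binding of a factor was measured, so a match describes letters only.

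The sequences upstream of the RefSeq start of 3 genes are shown in the same way. Capitals mark matches to the kappa B motif, which NF-kB proteins recognise. The 3 were picked by hand among genes lower in the Momordicine-I gated cells, and other lower genes are not shown.
Nfkbia chr12:55492648-55492797, minus strand: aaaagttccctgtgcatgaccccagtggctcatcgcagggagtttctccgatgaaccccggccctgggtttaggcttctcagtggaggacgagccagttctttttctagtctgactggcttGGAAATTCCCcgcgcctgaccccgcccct
Tnfaip3 chr10:19015411-19015560, minus strand: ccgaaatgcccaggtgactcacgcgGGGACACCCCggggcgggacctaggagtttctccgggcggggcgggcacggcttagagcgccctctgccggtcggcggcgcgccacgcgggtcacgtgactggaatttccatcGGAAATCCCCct
Cxcl2 chr5:90903749-90903898, plus strand: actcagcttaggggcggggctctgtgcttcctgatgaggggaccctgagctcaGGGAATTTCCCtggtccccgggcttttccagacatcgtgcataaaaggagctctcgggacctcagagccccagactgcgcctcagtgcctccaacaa
The 2 matches of Cxcl2 overlap by all but 1 base at each end. RefSeq starts differ here from the annotation used for gene positions. By that annotation, the Tnfaip3 window lies inside the gene (chr10:19000910-19015657). The Cxcl2 window runs past the annotated gene start at chr5:90903871. In the 250-base windows, the motif matched 8 of 23 immediate early and NF-kB response genes with a RefSeq entry (34.8%), against 1204 of 27025 genes (4.46%). The 8 were Fos, Fosb, Fosl2, Ier3, Nfkb2, Nfkbia, Rel and Tnfaip3. The list was not split into lower and other genes, so a link between the motif and the ratios was not tested. Among the 20 genes most enriched in gated cells, the kappa B motif occurred in 2 of 18 matched genes (11.1%).

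The deposited vehicle library held 33998491 UMIs in 3642 barcodes, and the Momordicine-I library 41804810 UMIs in 4693 barcodes. The gated cells held 510877 and 354172 of these UMIs, with a median of 7142.5 UMIs and 1804.5 genes per vehicle cell and 6843 UMIs and 1701 genes per Momordicine-I cell. The libraries shared 10 barcodes, of which 0 were gated cells. A positive gate of 70 and 56 cells lost 14 and 13 cells to the negative limits, mostly to keratin UMIs (9 and 11 cells).

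Most gated cells carried other basophil genes, and a few carried those of another cell type. UMIs of 7 basophil genes outside the gate (Ms4a2, Fcer1a, Gata2, Cyp11a1, Hdc, Il18rap and Ccl9) summed to a median of 133.5 per vehicle cell and 80 per Momordicine-I cell. At least 20 such UMIs were present in 53 of 56 vehicle cells and 35 of 43 Momordicine-I cells. Mast cells carry several of these genes too, and 2 and 6 of these cells were mast marker cells as defined below, which leaves 51 and 29. Hdc and Il18rap were also less specific, at 3.74-fold and 2.29-fold over all other cells in the library with the lower fold. Those other cells held 43523 and 52581 Hdc UMIs, so a sum of 20 UMIs does not by itself mark a basophil. Both gate genes were detected in 42 and 24 cells, Cd200r3 without Mcpt8 in 10 and 12, and Mcpt8 without Cd200r3 in 4 and 7.

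The other programmes were those of mast cells, NK cells and cells with MHC class II. Mast proteases (at least 10 UMIs of Cma1, Mcpt4, Tpsb2, Mcpt1 and Mcpt2) marked 2 vehicle and 7 Momordicine-I cells. Cma1, a chymase, had 32 and 1025 UMIs in the 2 vehicle cells and 16 to 496 in the 7 Momordicine-I cells, and every one of these 9 cells also had Kit UMIs. NK genes such as Gzma marked 3 and 2 cells, and class II genes marked 0 and 2. In these 2 class II cells, Cd74, the invariant chain, had 449 and 581 UMIs and Mcpt8 had 0.

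Leaving these out kept 51 vehicle and 32 Momordicine-I cells, called below the gated cells without other-type markers. The kept cells held 384124 of the 510877 gated UMIs in the vehicle library and 208751 of 354172 in the Momordicine-I library. The marker cells thus took a larger part of the gated UMIs in the Momordicine-I library. This lowers the ratio over all gated cells of any gene that the marker cells lack. The narrower set of kept cells was defined after the data were seen. In it, 5 of 9 mast cell markers other than Cpa3 were at 0 in the vehicle library (Cma1, Tpsab1, Kit, Mrgprb1 and Mrgprb2), and 6 of 9 in the Momordicine-I library. The 9 markers summed to 10.4 and 19.2 CPM (counts per 1e+06 UMIs) there, against 10838 and 29793 in all gated cells. Of 10 eosinophil markers, 6 were at 0 in gated vehicle cells and 7 in gated Momordicine-I cells, among them Epx, Prg2, Ear1 and Ear2 in both.

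**Figure D1:**
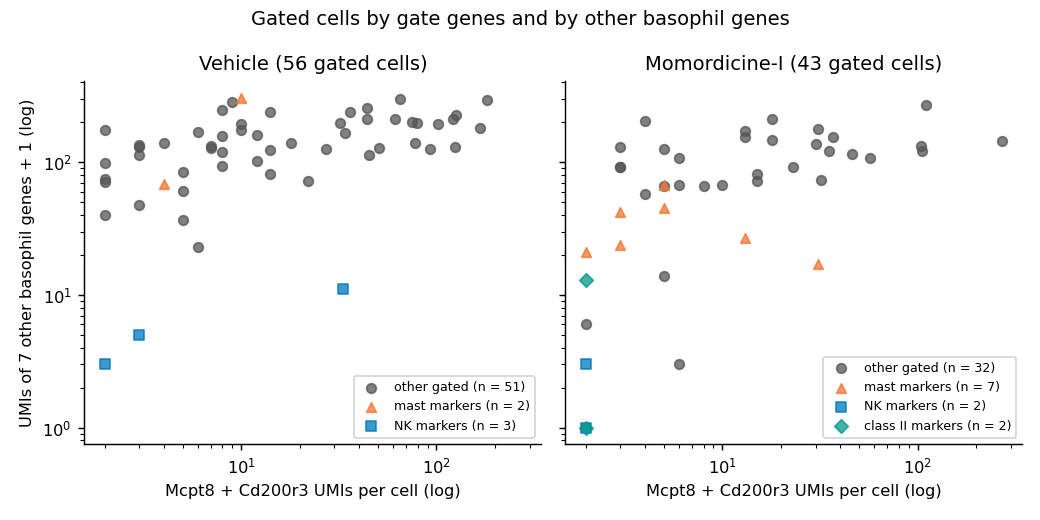
Each point is 1 gated cell, with its Mcpt8 plus Cd200r3 UMIs on the horizontal log axis and its UMIs of 7 other basophil genes (plus 1) on the vertical log axis, vehicle left and Momordicine-I right. Cells without other-type markers lie mostly above 20 UMIs of the other basophil genes, while the NK and class II marker cells lie below 20 and the mast marker cells (2 vehicle, 7 Momordicine-I) hold 16 to 307.

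At the edge of the gate, other-type marker cells were unevenly spread. The 6 vehicle cells with exactly 2 gate UMIs had a median of 72 UMIs of the 7 other basophil genes, and the 6 Momordicine-I cells had a median of 3.5. Of these cells, 1 vehicle cell and 5 Momordicine-I cells were NK, class II or mast marker cells. With 3 gate UMIs the medians were 112 and 91 (5 cells each). Just outside, at 1 gate UMI, 35 vehicle and 22 Momordicine-I cells had a median of 11 in both libraries, and 12 and 8 of them held 20 or more.

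Gated cells made up a smaller share of the sorted cells in the Momordicine-I library. Their share of passing cells was 1.66% (exact 95% interval 1.26 to 2.16) for vehicle and 0.984% (0.713 to 1.32) for Momordicine-I, which gives a ratio of 0.591 (0.388 to 0.895). Neutrophils were 1363 and 1960 of the passing cells by an S100a8 and S100a9 gate. Outside that gate the shares of gated cells were 2.80% and 1.78%, a ratio of 0.638 (0.418 to 0.966).

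Without other-type markers, the share was 1.52% (1.13 to 1.99) against 0.732% (0.501 to 1.03), a ratio of 0.483 (0.300 to 0.766). Cells with mast proteases went the other way. Counted with or without the basophil gate, they were 4 of 3364 vehicle cells (0.119%) and 18 of 4370 Momordicine-I cells (0.412%), a ratio of 3.46 (1.14 to 14.1).

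Compared with all other cells of the same library, the gated cells were set apart by granule proteases, the IgE receptor, GATA2 and interleukins 4 and 6. Levels are CPM of the summed gated cells, and the fold over other cells is the lower of the 2 libraries. Among genes at 100 CPM or more in the gated cells of both libraries, 73 of 1077 (6.78%) were at least 5-fold higher than in other cells in both. The gate itself selected for these genes, so they are a description.

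Prss34, a basophil serine protease, had the highest fold, at 1302, with 438 CPM in gated vehicle cells and 217 CPM in gated Momordicine-I cells. Leaving out other-type marker cells put Prss34 at 583 and 369 CPM. Its UMIs came from 6 and 5 cells only. Mcpt8 stood at 3089 and 2603 CPM (347-fold) and Cd200r3 at 575 and 542 CPM (190-fold). Grm6, a glutamate receptor, was 248-fold, Cyp11a1, which starts steroid synthesis from cholesterol, 182-fold, and Gata2 180-fold higher. The receptor genes Fcer1a, the IgE-binding chain, and Ms4a2, the beta chain, were 162-fold and 138-fold higher.

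Several genes in that ranking belonged to the mast marker cells. Cma1, Tpsb2, Mcpt1, Mcpt4 and Mrgprb1 ranked among the first 20 in all gated cells. Cma1 was at 2069 and 4868 CPM with the mast marker cells and had no UMI in either library without them. Cpa3, carboxypeptidase A3 of both lineages, went from 1268 and 895 CPM to 167 and 86.2 CPM. In the 9 mast marker cells Cpa3 was at 11338 CPM (2 vehicle cells) and 5456 CPM (7 Momordicine-I cells). Near-identical proteases such as Mcpt1 and Mcpt2 can share reads, so the split between them is uncertain.

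Among the populations compared, Il4 and Il6 were highest in the gated cells. Il4, the signature cytokine of basophils, was at 624 and 452 CPM in gated cells, and at 6.53 and 2.33 CPM in the ILC2 gate (Gata3 and Il1rl1, 49 and 38 cells). It was at 9.41 and 2.51 CPM in the T cell gate. Il4 was detected in 35 of 56 and 22 of 43 gated cells, against 3 of 235 and 0 of 85 B cells, where 0 of 85 allows a share of up to 3.53%. Median depths of the B cells were 6271 and 4937 UMIs, and after each cell was thinned to 2000 UMIs the gated counts were 16 of 55 and 11 of 40.

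Il6 stood at 3406 CPM in vehicle and 1985 CPM in Momordicine-I gated cells, and no B cell had a UMI of it in either library. Il4 and Il6 were found in the same cell in 29 of 56 vehicle cells and 17 of 43 Momordicine-I cells. Il13, the partner cytokine of Il4, was limited to 13 and 12 cells and lay at 243 and 336 CPM. Of these, 10 and 7 cells also held both Il4 and Il6.

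**Figure D2:**
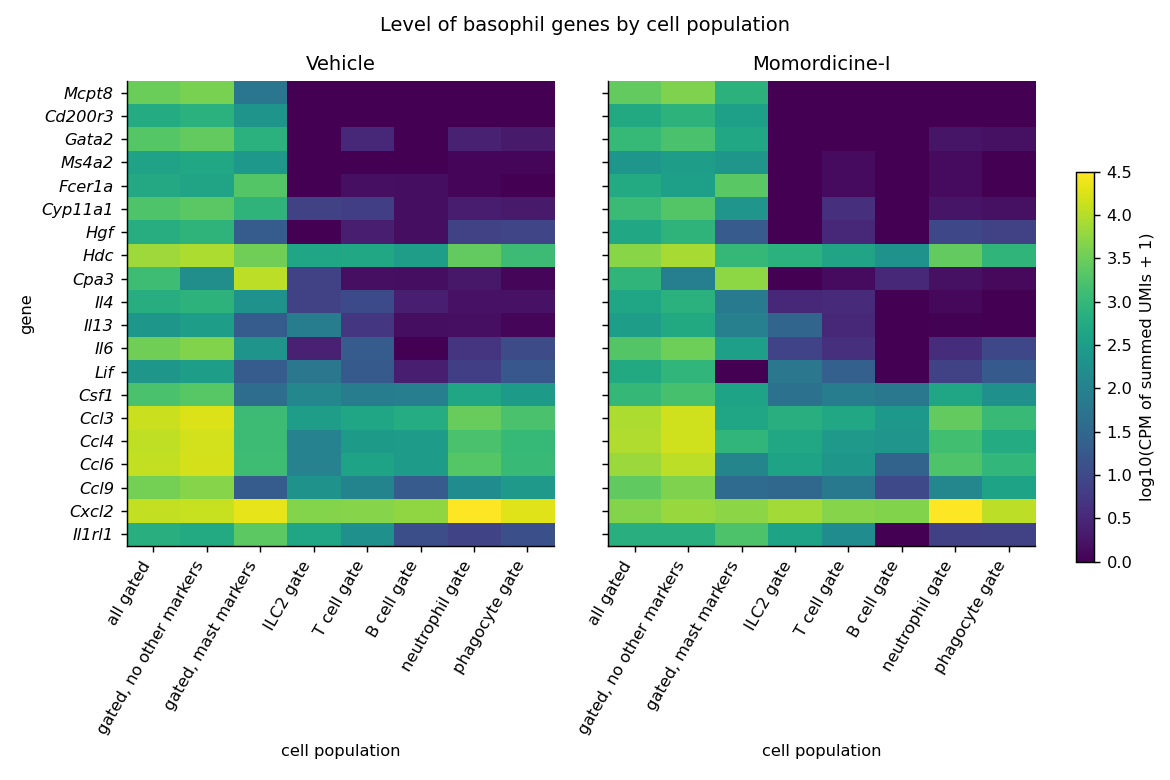
Colour gives log10 of CPM plus 1 of summed UMIs for 20 basophil genes (rows) in 8 cell populations (columns), vehicle left and Momordicine-I right. Gata2, Il4 and Il6 are bright in the gated cells and, at lower levels, in the mast marker cells, Ms4a2 is bright in both, Cpa3 and Fcer1a are brightest in the mast marker cells, and Cxcl2 and Hdc are also high in the neutrophils.

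Within the gated cells, Prss34 marked a small group with high Mcpt8. The 6 vehicle cells with at least 2 Prss34 UMIs had 40 to 156 Mcpt8 UMIs (median 103), against 0 to 161 (median 5) in the 45 other vehicle cells without other-type markers. The 5 such Momordicine-I cells had 13 to 250 (median 94), against 0 to 108 (median 7) in 27. The ranges overlap in both libraries. The Prss34 cells were deeper, with median totals of 11050 against 6697 UMIs in the vehicle library and 10092 against 6108 in the Momordicine-I library. In CPM they still had more Mcpt8 (7618 against 3090 CPM, and 9409 against 2471 CPM) and more Fcer1a (892 against 303 CPM, and 599 against 268 CPM). Gata2 went the other way, at 1759 against 2862 CPM and 1391 against 1726 CPM. The group was chosen after the data were seen, and Mcpt8 also served the gate.

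Between the libraries, 4440 genes held at least 20 UMIs over all gated cells. Of these, 741 (16.7%) were at least 1.5-fold higher and 733 (16.5%) at least 1.5-fold lower in the Momordicine-I library, with a median log2 ratio of −0.01. Without other-type markers, 426 of 3123 genes (13.6%) were higher and 500 (16%) lower, with a median of −0.03. These shares are the background for every count below.

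The genes with the most extreme ratios belonged to few cells. Of the 12 higher genes, Cd74, H2-Aa, H2-Ab1, H2-Eb1, H2-DMa, Ccl17, Mgl2, Mmp12, Dab2, Plet1 and Tnfsf8 each had 49.3% to 99.0% of their Momordicine-I UMIs in 1 cell. Cd74 was at 54.8 CPM in vehicle and 3219 CPM in Momordicine-I gated cells, a ratio of 58.7 (40.4 to 88.8). Without other-type markers its ratio was 7.15 (4.61 to 11.5), and 1 Momordicine-I cell held 67.3% of the 101 UMIs there. H2-Aa, a class II alpha chain, went from a ratio of 60.1 to 0.613 (0.107 to 2.46). Plet1 had 0 vehicle UMIs and 89 in 3 Momordicine-I cells, at least 42.8-fold higher against a floor of 3 counts.

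Csf2, which encodes GM-CSF, was the 12th higher gene, at 68.5 and 802 CPM, a ratio of 11.7 (8.22 to 17.1). A single Momordicine-I cell held 99.6% of its 284 UMIs there, and without the highest cell of each library the log2 ratio was −2.06. Among the 12 lower genes, Cma2, Gzmf, Gzmd, Car2 and Stmn1 rested on 4 vehicle cells or fewer each. Gzmf, a granzyme, had 1308 vehicle UMIs, 95.5% of them in 1 cell, and 1 UMI without other-type markers. Near-identical granzymes can share reads.

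Other lower genes were spread over more cells. Tnfaip3, Cxcl2, Slc2a3, Rapgef2 and Isg15 were detected in 19 or more vehicle cells each, and Amigo2 in 7. Slc2a3, the glucose transporter GLUT3, had 135 UMIs in 29 vehicle cells and 23 UMIs in 12 Momordicine-I cells, a ratio of 0.246 (0.151 to 0.384), and 0.275 (0.160 to 0.448) without other-type markers. In all other cells of the libraries its ratio was 0.997 (0.958 to 1.04). Rapgef2, which activates the GTPase RAP1, had 72 UMIs in 28 cells and 11 in 10 cells, a ratio of 0.220 (0.105 to 0.418).

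Tnfaip3 and Nfkbia, which encode inhibitors of NF-kB, were lower in the Momordicine-I gated cells. Tnfaip3 (chr10:19000910-19015657), which encodes the ubiquitin-editing inhibitor A20, was at 3110 CPM in vehicle and 1211 CPM in Momordicine-I gated cells, a ratio of 0.389 (0.349 to 0.434). Per 10000 UMIs, its level in single vehicle cells ran from 0 to 135 with a median of 34.8, and in Momordicine-I cells from 0 to 148 with a median of 7.90. The ranges overlap in full, and the cells above the vehicle median were few in the Momordicine-I library. At least 20 Tnfaip3 UMIs were found in 34 of 56 and 5 of 43 cells, and at least 5 after thinning to 2000 UMIs in 35 of 55 and 10 of 40.

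Nfkbia (chr12:55489410-55492647), the inhibitor IkB alpha that NF-kB itself induces, was at 6199 and 2886 CPM, a ratio of 0.465 (0.433 to 0.500). Its median per 10000 UMIs was 60.9 in vehicle and 20.4 in Momordicine-I cells. Without other-type markers the ratios were 0.485 (0.432 to 0.543) for Tnfaip3 and 0.570 (0.529 to 0.614) for Nfkbia. In all other cells of the same libraries they were 0.909 (0.891 to 0.928) and 0.988 (0.979 to 0.997).

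The NF-kB subunit genes Nfkb1 (ratio 0.586, 0.480 to 0.711) and Nfkb2 (0.621, 0.384 to 0.982) were also past 1.5-fold lower, and Rel was at 0.857 (0.617 to 1.18). Without other-type markers these 3 were at 0.693, 0.349 and 0.569. Pim1, a survival kinase induced by cytokines, was at 2795 and 1632 CPM, a ratio of 0.584 (0.529 to 0.644). In the list of 30 immediate early and NF-kB response genes, 28 were measured, 3 higher and 7 lower, with a median log2 ratio of −0.29. Without other-type markers, 27 were measured, 6 higher and 5 lower, with a median of −0.18.

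Of the listed EGR and NR4A family genes, 5 were measured: Egr3 alone was past 1.5-fold higher in all gated cells, and Egr1, Egr3 and Nr4a1 were in the narrower set. Egr1, a zinc finger factor that appears within minutes of receptor signalling, was at 4238 CPM in vehicle and 6037 CPM in Momordicine-I gated cells, a ratio of 1.42 (1.34 to 1.51). Its median per 10000 UMIs was 45.9 and 54.8, with ranges of 0 to 159 and 0 to 268. Without other-type markers its ratio was 1.82 (1.71 to 1.94), and in all other cells 1.02 (1.01 to 1.03).

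Egr3 had 85 and 100 UMIs, a ratio of 1.70 (1.26 to 2.29), and stood at 0.584 (0.530 to 0.644) in all other cells. Nr4a1, the orphan receptor NUR77, was at 333 and 488 CPM, a ratio of 1.47 (1.18 to 1.82), and 1.79 (1.41 to 2.27) without other-type markers. Its single-cell medians ran the other way, at 1.20 per 10000 UMIs in vehicle and 0 in Momordicine-I cells of the narrower set, with maxima of 33.4 and 66.0. Egr2 had 23 and 18 UMIs, a ratio of 1.13 (0.574 to 2.19), and Nr4a3 had 61 and 57, a ratio of 1.35 (0.923 to 1.97), and in the narrower set they were at 0.720 and 1.27. Members of the AP-1 family split. Fosb was lower at 0.606 (0.562 to 0.652) and Jun and Fos were at 0.726 and 0.768, while Junb was at 1.09 (1.02 to 1.16). Klf4 and Atf3 had ratios of 7.25 and 3.27, but Klf4 UMIs came from 7 and 8 cells, with 57.1% and 46.6% in 1 cell of each library.

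**Figure D3:**
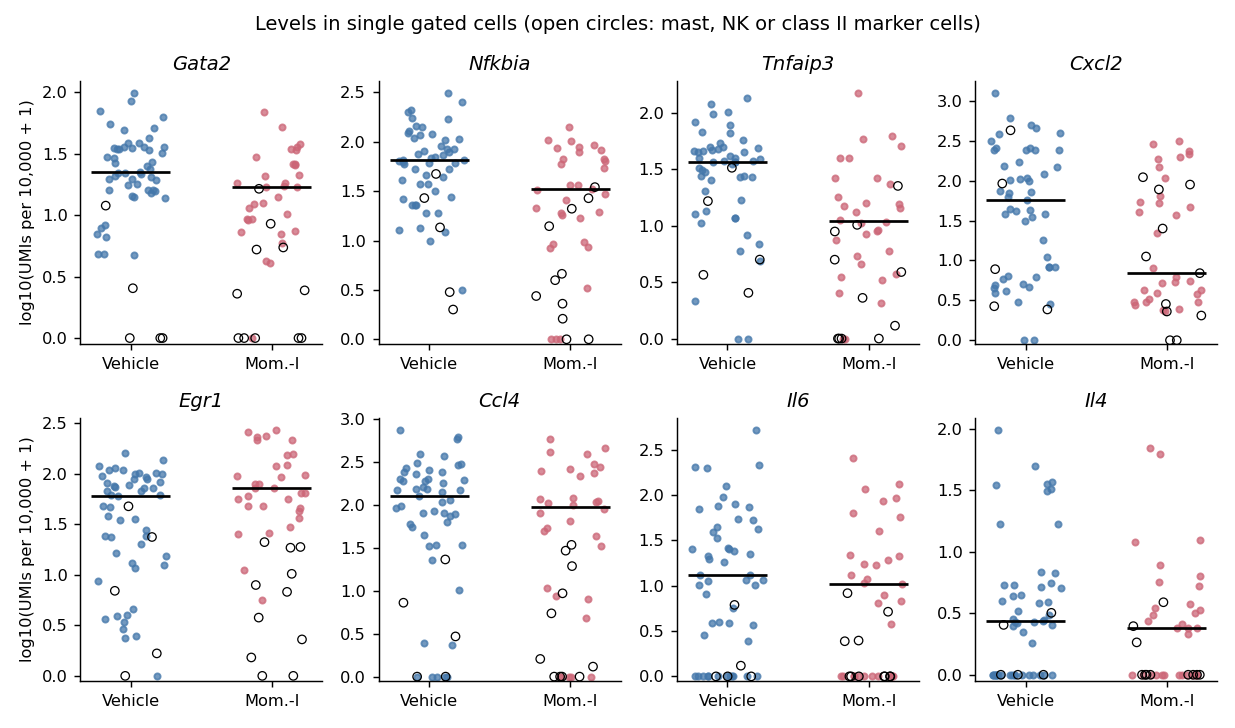
Each point is 1 gated cell, with the level of the named gene as log10 of UMIs per 10000 plus 1, vehicle in blue and Momordicine-I in red. Open circles are mast, NK or class II marker cells and bars are medians without them: the bar for Tnfaip3 lies at 35.8 UMIs per 10000 in vehicle and 9.99 in Momordicine-I cells, and the bar for Egr1 at 59.3 and 70.6.

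Among chemokine and cytokine genes, Cxcl2 and Tnf were lower and Lif was higher in all gated cells and in the narrower set. Of 30 listed ligand genes, 23 were measured, 3 higher and 9 lower, with a median log2 ratio of −0.36. Without other-type markers, 20 were measured, 4 higher and 2 lower, with a median of −0.06. Of the ligand genes, the share lower was thus above the 16.5% of all genes with every gated cell and below the 16% of all genes without the other-type marker cells.

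Cxcl2, a neutrophil-attracting chemokine, was at 12066 CPM in vehicle and 4647 CPM in Momordicine-I gated cells, a ratio of 0.385 (0.365 to 0.407), and 0.485 (0.456 to 0.515) without other-type markers. Per 10000 UMIs its median was 49.7 in vehicle and 5.93 in Momordicine-I cells, with ranges of 0 to 1243 and 0 to 311. In the neutrophils Cxcl2 was higher, at 34590 and 31852 CPM, and over all other cells its ratio was 0.919. B cells, which should make little of it, had Cxcl2 UMIs in 86.0% and 85.9% of cells with a median of 2. Counts of a few Cxcl2 UMIs in a gated cell thus cannot be told apart from free RNA. At least 20 Cxcl2 UMIs were held by 24 of 235 and 5 of 85 B cells, against 33 of 56 and 17 of 43 gated cells.

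Ccl6 and Ccl9, chemokines of myeloid cells, were at 12175 and 6553 CPM (ratio 0.538, 0.513 to 0.565) and at 3660 and 2507 CPM (0.685, 0.632 to 0.742). Ccl3 and Ccl4, inflammatory chemokines, were at 13749 and 8998 CPM (0.654, 0.627 to 0.683) and at 11782 and 9210 CPM (0.782, 0.749 to 0.816). Without other-type markers, Ccl6 was at 0.691, Ccl3 at 0.826, Ccl9 at 0.860 and Ccl4 at 0.959. None of the 4 was past 1.5-fold in the narrower set.

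Il6 had a ratio of 0.583 (0.533 to 0.637), and 0.728 (0.665 to 0.796) without other-type markers. Its single-cell median was 10.4 per 10000 UMIs in vehicle cells and 4.16 in Momordicine-I cells, or 12.1 and 9.49 without other-type markers, and its highest cell held 19.7% and 34.0% of its UMIs. Il4 was at a ratio of 0.723 (0.595 to 0.877) in all gated cells and 0.929 (0.761 to 1.13) in the narrower set, an interval that includes 1. Csf1, the macrophage growth factor, was at 1584 and 980 CPM, a ratio of 0.619 (0.544 to 0.702), and 0.734 (0.643 to 0.837) in the narrower set. Tnf had only 102 and 24 UMIs, a ratio of 0.339 (0.208 to 0.534), and 0.273 (0.148 to 0.472) in the narrower set.

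Lif, leukaemia inhibitory factor, was at 243 CPM in vehicle and 551 CPM in Momordicine-I gated cells, a ratio of 2.27 (1.80 to 2.86). The UMIs came from 14 vehicle cells and 8 Momordicine-I cells, and the highest cell held 46.0% and 34.4% of them. Il13 had 124 UMIs in 13 cells and 119 in 12 cells, a ratio of 1.38 (1.07 to 1.79), and 1.71 (1.31 to 2.22) without other-type markers. The highest cell held 33.1% of the Il13 UMIs in gated vehicle cells and 42.9% in gated Momordicine-I cells. Osm, oncostatin M of the same cytokine family as Lif, was at 1948 and 2231 CPM, a ratio of 1.15 (1.04 to 1.26), and 1.46 (1.32 to 1.60) in the narrower set. Hgf, hepatocyte growth factor, was at 642 and 508 CPM, and at a ratio of 1.01 (0.835 to 1.21) in the narrower set.

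**Figure D4:**
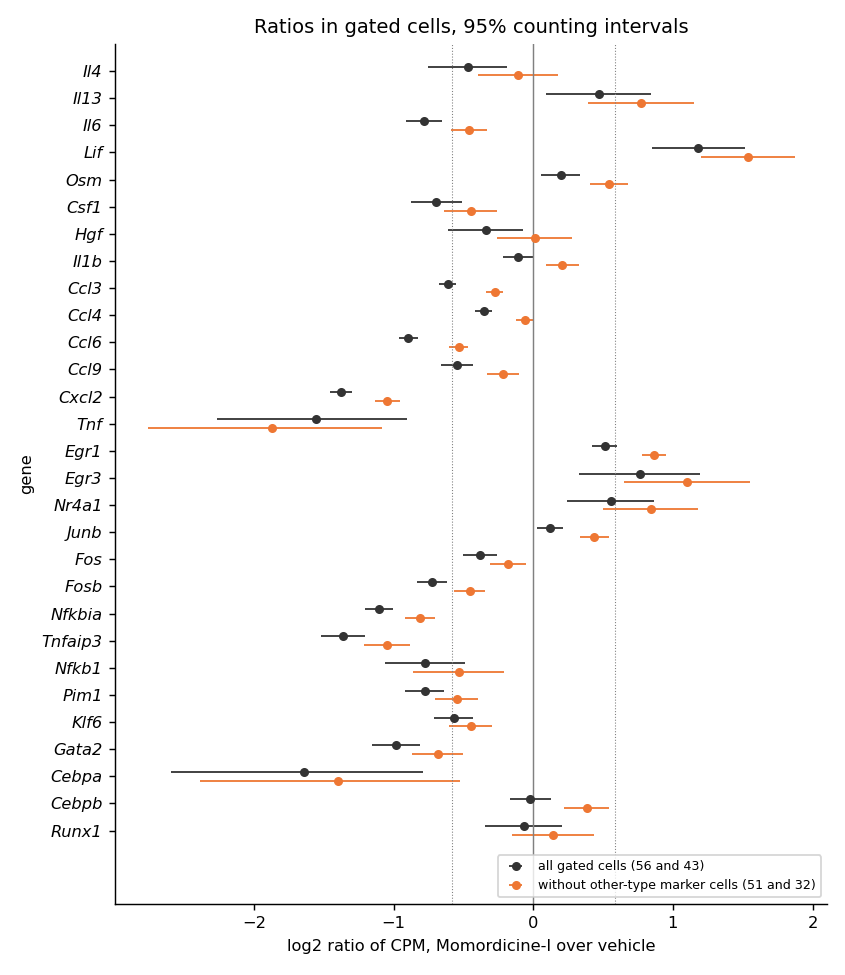
Points are log2 ratios of CPM, Momordicine-I over vehicle, for 29 genes, with bars for 95% intervals of counting error, black for all gated cells and orange without other-type marker cells. Dotted lines mark 1.5-fold: Cxcl2, Tnf, Nfkbia, Tnfaip3, Gata2 and Cebpa lie left of the lower line in both sets, Lif and Egr3 lie right of the upper line in both, and most chemokines move toward 0 in the orange set.

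Among the lineage transcription factors, Gata2 and Cebpa were lower and most others were not past 1.5-fold. Gata2 (chr6:88193891-88207032) was at 2059 CPM in vehicle and 1042 CPM in Momordicine-I gated cells, a ratio of 0.506 (0.448 to 0.570), and 0.622 (0.549 to 0.704) without other-type markers. Per 10000 UMIs, vehicle cells ran from 0 to 96.6 with a median of 20.6, and Momordicine-I cells from 0 to 68.3 with a median of 10.5. Its ratio in the few UMIs of all other cells was 0.708 (0.591 to 0.847). Cebpa, a myeloid factor, had 63 UMIs in 25 cells and 14 in 10 cells, a ratio of 0.321 (0.166 to 0.578).

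Runx1, required early in blood formation, was at 542 and 517 CPM, a ratio of 0.953 (0.786 to 1.15). Cebpb was at 1828 and 1801 CPM, a ratio of 0.985 (0.890 to 1.09). Of 20 listed factors 16 were measured, 1 higher and 4 lower, with a median log2 ratio of −0.15, and the median was 0.13 without other-type markers.

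The IgE receptor was uneven. Ms4a2, its signal-amplifying beta chain, was at 388 and 229 CPM, a ratio of 0.590 (0.450 to 0.768), and 0.676 (0.504 to 0.898) in the narrower set. Fcer1a was at 513 and 556 CPM, a ratio of 1.08 (0.897 to 1.31), and at 422 and 350 CPM, 0.829 (0.620 to 1.10), once the mast marker cells were left out. Fcer1g, the gamma chain shared with other receptors, was at 1662 and 1499 CPM, a ratio of 0.902 (0.808 to 1.01). Of 17 measured genes of the receptor and its proximal kinases and adaptors, 0 were higher and 4 lower, with a median log2 ratio of −0.08. The narrower set had 17 measured, 1 higher and 2 lower, with a median of 0.0053. Syk, one of the proximal kinases, was at 1.44 (1.03 to 2.02) in all gated cells. Its log2 ratio took the other sign in 2 of 13 alternative processings, down to −0.29.

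Of 17 measured granule and mediator genes, 0 were higher and 3 lower, with a median log2 ratio of −0.32. The narrower set had 16 measured, 0 higher and 3 lower, with a median of −0.18. Hdc, which makes histamine, was at 6867 and 4924 CPM, a ratio of 0.717 (0.677 to 0.760), and at 0.932 (0.878 to 0.988) in the narrower set. It was detected in 55 of 56 and 39 of 43 cells, and in 56 of 235 and 15 of 85 B cells. After thinning to 2000 UMIs these were 52 of 55 and 34 of 40 gated cells, and 24 of 232 and 8 of 83 B cells. Mcpt8 was at 0.843 (0.776 to 0.915) and 1.05 (0.963 to 1.14), and Cd200r3 at 0.942 (0.781 to 1.13) and 1.10 (0.903 to 1.33), in all gated cells and in the narrower set. Srgn, the granule proteoglycan serglycin, was at 0.907 (0.862 to 0.955), and Alox5ap, which serves leukotriene synthesis, at 1.02 (0.907 to 1.15). Prss34, one of the 3 lower genes, was at 0.496 (0.378 to 0.645), and at 583 and 369 CPM in the narrower set. Its UMIs came from only 6 vehicle and 5 Momordicine-I cells, and the highest cell held 46.4% and 67.5% of them.

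Receptors for basophil-activating signals showed few large ratios. Il1rl1, the interleukin 33 receptor, was at 664 and 658 CPM, a ratio of 0.991 (0.835 to 1.17), and Csf2rb, the shared chain of the interleukin 3 receptor, at 1075 and 1070 CPM, 0.996 (0.871 to 1.14). The interleukin 18 receptor genes Il18r1 and Il18rap were at 0.609 (0.422 to 0.867) and 0.655 (0.519 to 0.821), and at 0.830 and 0.868 in the narrower set. C3ar1, the receptor for complement C3a, had 76 UMIs in 37 cells and 19 in 14 cells, a ratio of 0.361 (0.206 to 0.602). Of 23 measured receptors, 3 were higher and 3 lower, with a median log2 ratio of −0.11. The narrower set had 21 measured, 2 higher and 2 lower, with a median of 0.02.

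Of 18 measured hypoxia and glycolysis genes, 3 were higher and 1 lower, and Tpi1, triosephosphate isomerase, had 87 and 151 UMIs, a ratio of 2.50 (1.91 to 3.30), against 1.26 (1.23 to 1.29) in all other cells. Of 18 survival and death genes, 5 were higher and 2 lower, and in the narrower set 5 of 15 were higher and 1 lower. The higher genes of this list, and of the interferon and checkpoint lists below, are not named here. Gadd45a, a stress-induced growth arrest gene and one of the lower genes, was at 617 and 237 CPM, a ratio of 0.385 (0.299 to 0.491). Of 30 interferon response genes only 7 reached 20 UMIs, 2 higher and 1 lower, with a median log2 ratio of 0.42. The lower one, Isg15, a ubiquitin-like effector, had 64 UMIs in 19 cells and 10 in 5 cells, a ratio of 0.225 (0.103 to 0.442), against 0.655 (0.632 to 0.678) in all other cells. Of 13 measured checkpoint and regulatory genes, 2 were higher and 2 lower: Havcr2, the receptor TIM-3, was at 0.462 (0.300 to 0.693) and Pdcd1lg2, the ligand PD-L2, at 0.481 (0.228 to 0.946), while Cd274, the ligand PD-L1, was at 1.22 (0.850 to 1.74).

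Of 19 measured adhesion and migration genes, 2 were higher and 3 lower. One of the lower genes, Cd7, had 68 and 12 UMIs, a ratio of 0.255 (0.125 to 0.474). Of 18 cell stress genes 2 were higher and 3 lower, among them Ddit4, an inhibitor of mTOR signalling, at 0.536 (0.442 to 0.647). Of 13 measured MHC class I genes 3 were higher and 0 lower, and 7 of 8 measured class II genes were higher, while without other-type markers 2 of 3 were.

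Neutrophil RNA differed between the narrower sets and its part in the results was not tested. S100a8 and S100a9, abundant neutrophil transcripts, made up a median of 0.0415% and 0.0466% of UMIs per gated cell. They reached 1.69% in a vehicle cell and 6.63% in a Momordicine-I cell. The 11 neutrophil markers other than Hdc summed to 3101 and 4608 CPM in all gated cells and to 1447 and 6223 CPM without other-type markers. Ly6g was at 0 in both libraries. S100a9 had a ratio of 7.93 (6.64 to 9.53) in the narrower set, with 40.6% of the Momordicine-I UMIs in 1 cell. Leaving out cells above 1% of these UMIs as well brought its log2 ratio to 0.72, and the log2 ratios of Tnfaip3, Nfkbia, Cxcl2 and Egr1 were then −0.92, −0.66, −1.16 and 0.96.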

How the data were processed

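The authors deposited UMI counts per gene and barcode, 1 filtered matrix per library with 32285 genes, made with Cell Ranger 6.0.2 against mm10, per the submitters' processing notes. Everything else was computed from these counts with Python 3.11.15, numpy 2.4.6, scipy 1.17.1, pandas 2.3.3 and scanpy 1.11.5. Barcodes with at least 200 genes and at most 10% mitochondrial UMIs were kept and gated as described. UMIs were summed per library over the gated cells and divided by their total to give CPM.

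A ratio is Momordicine-I over vehicle, with an exact conditional binomial 95% interval. Shares have exact Clopper-Pearson 95% intervals. Both cover counting error only, and the interval of a gene ratio also leaves out the spread between cells. Genes counted as higher or lower had at least 20 UMIs over both libraries and passed 1.5-fold. The step was tested on data simulated with counting error alone, the model that the interval of a gene ratio assumes. That test therefore does not cover the spread between cells or libraries. Scrublet, run through scanpy, marked 2 and 1 barcodes by its own threshold, so it did not work as a doublet caller here, and leaving out the 98 and 164 highest scores was an alternative.

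Named genes were the 12 higher and 12 lower genes whose ratio interval lay farthest from 1, the 20 most enriched over other cells, and members of the gene lists. Predicted, ribosomal, mitochondrial, haemoglobin and antigen receptor genes were left out of the ranking. Some genes that the rule names are not reported here. The members and lists were chosen with earlier results of these data known, and the set without mast, NK and class II marker cells was chosen after seeing the data (at least 10 UMIs of mast proteases, 20 of NK genes or 100 of class II genes). Gene positions are from the GRCm38 annotation, and upstream sequences are from RefSeq, so the gene starts can differ between them.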

Additional observations from a re-analysis of the deposited data

How the results depend on the processing

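No paired analysis was possible because each group is 1 library, and for the same reason no replicate could be left out. The ratio of the shares of gated cells among passing cells lay between 0.446 and 0.616 in the alternatives run, all below 1. Among cells outside the neutrophil gate it was 0.638. Of 741 higher and 733 lower genes, the higher count was 464 with at least 4 gate UMIs, 426 without other-type marker cells, and 389 without these and cells above 1% S100a8 and S100a9 UMIs, the last 2 being chosen after seeing the data. With no limit on Cd3e, Cd79a and keratins the counts were 1125 higher and 1842 lower, with cells thinned to 2000 UMIs 182 and 235, with at least 50 UMIs 217 and 293, and with no filter beyond 1 UMI 3345 and 3426. Fewer or more genes are tested under the last 3. Of 60 named genes past 1.5-fold with UMIs in both libraries, 8 took the other sign in 1 or more alternatives. Alternatives that left a gene without UMIs in a library were not counted for it. Mgl2, a higher gene, was such a case, with 1 vehicle UMI and 0 Momordicine-I UMIs without other-type marker cells. With at least 1 gate UMI the log2 ratio was −0.0518 for Ccl17, −0.34 for S100a8 and −0.33 for S100a9. With at least 4 it was −0.95 for H2-Aa and −0.14 for Ccl17 and Dab2. With no negative limits it was 0.0662 for Csf1 and −0.22 for S100a8. Without other-type marker cells it was −0.71 for H2-Aa, −2.71 for H2-Eb1, −1.12 for Ccl17 and −0.12 for Dab2, and without cells above 1% S100a8 and S100a9 UMIs as well it was −0.43, −2.60, −1.02 and −0.015. Without the highest cell of each gene it was −2.06 for Csf2 and −0.0564 for Ccl17. The cause was not tested beyond what each alternative removes.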
